A study of Mus musculus with 16 samples.

Results

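The 10 genes described here are expressed mainly from one parental copy and act on growth before and after birth. They were followed in the livers of young mice whose mothers had breathed titanium dioxide dust in pregnancy. They were chosen by name: Igf2, Dlk1, Peg3, Mest and Plagl1, which are expressed from the paternal copy, and H19, Meg3, Cdkn1c, Igf2r and Grb10, which are expressed from the maternal copy in liver. All 10 of 10 members were among the 18707 genes measured, with 22 probes between them, and every one of these probes was above background in the liver channel on all 16 arrays. The brightest probe of a gene stood for it.

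Time-mated C57BL/6BomTac dams breathed air with about 42 mg/m3 of UV-Titan, nano-sized titanium dioxide particles with a coated surface, for 1 h a day from gestation day 8 to 18, or filtered air, by whole-body exposure. Liver RNA of their offspring, 1 animal per array, formed 4 groups: female UV-Titan (5 arrays), female control (3), male UV-Titan (4) and male control (4). Each array carried liver RNA in the red channel and a purchased universal mouse reference RNA in the green channel, with no dye swap. The offspring were collected as newborns or at weaning and the labels do not tell which age or litter an array belongs to, so p-values measure the spread between these animals and litters cannot be set apart.

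Genomic imprinting marks the parental copies of a gene differently in egg and sperm, so that later only one of them is read. Igf2 encodes insulin-like growth factor 2, a growth factor made in quantity by fetal liver. H19, its neighbour, is a long non-coding RNA read from the other parental copy, and both share enhancers. Dlk1, a transmembrane protein of the Notch ligand family, and Meg3, a long non-coding RNA, form a similar neighbouring pair. In mouse liver many of these genes are read strongly around birth and are turned down in the weeks that follow, and the repressors Zbtb20 (of Afp) and Zhx2 (of Afp, H19 and Gpc3) take part in this silencing. Zhx2 was not among the genes tested.

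Meg3 appears on this array under its older name Gtl2. H19 and Meg3 have no protein product, so their probes read the RNA that acts. The probes are shown because they mark the separate stretches of each RNA whose values are set side by side. By ratio the H19 probes gave close differences between UV-Titan and control, while their mean ratios were 3.46 and 4.14. The differences of the Meg3 probes spread in males, partly through 1 array. The probes are printed 5′ to 3′ as the array files give them, in build mm7, all in lower case because no base within them is singled out. No annotation of that build was used, so the exon or intron that holds a probe was not determined. The H19 probes lie at chr7:139003144-139003203 and chr7:139003393-139003540 on the minus strand, and the second covers 148 bases of the genome. The Meg3 probes shown lie on the plus strand at chr12:107092697-107092756 (the brightest), chr12:107083918-107083977 and chr12:107080192-107080251.
H19 brightest probe: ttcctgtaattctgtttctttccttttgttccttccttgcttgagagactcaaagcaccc
H19 other probe: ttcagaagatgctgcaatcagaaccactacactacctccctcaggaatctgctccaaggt
Meg3 brightest probe: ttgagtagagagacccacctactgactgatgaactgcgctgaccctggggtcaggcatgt
Meg3 probe at 107083918: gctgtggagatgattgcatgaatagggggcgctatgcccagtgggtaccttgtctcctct
Meg3 probe at 107080192: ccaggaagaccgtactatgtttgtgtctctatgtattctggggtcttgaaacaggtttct

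Between 57.7% and 67.1% of the liver-channel spots of an array were well above background. The 17 measured hepatocyte markers had a median log2 liver over reference of 4.91 to 6.23 per array, and Xist and Ddx3y separated all 8 males from all 8 females. Afp, the fetal counterpart of albumin, had 6.51 to 9.00 log2 liver over reference and Gpc3, a fetal liver proteoglycan, 5.61 to 6.75, on every array. Transcripts of other organs were present on 3 male arrays, by a score that averages the log2 liver signals of a list, each gene centred on its mean of all arrays. The exocrine pancreas list (12 of 15 genes measured) scored -0.48 to -0.08 in male UV-Titan and -0.39 to 2.80 in male controls, highest in replicates 31 and 33. The skeletal muscle list (12 of 13 measured) scored -0.25 to 2.00 in male UV-Titan, highest in replicate 5, and -0.26 to -0.11 in male controls. Male results are therefore also given without these 3 arrays.

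Values are given in 2 ways. The ratio is log2 of red over green after loess normalisation, and the liver channel alone is log2 of the red signal after quantile normalisation, which gives each array the same set of signals and so bounds the spread of the brightest probes. Arrays are listed by replicate number within each group: 2, 8, 10, 16 and 21 in female UV-Titan, 25, 35 and 40 in female control, 3, 4, 5 and 17 in male UV-Titan, and 31, 33, 41 and 43 in male control. A difference of 1 on either scale is a 2-fold difference. No member passed the test in any comparison by either measure (limma, adjusted p over all genes, threshold 0.05). For UV-Titan against control, 0% of the 18707 genes were called in females, in males, over both sexes and for the difference between the sexes, by ratio and by liver channel. With arrays weighted by their fit, 79 genes were called in females and 46 over both sexes, again with no member. By ratio, 1264 genes had an unadjusted p under 0.05 in females and 925 in males, and by liver channel 587 and 608. The arrays compared were 5 against 3 in females and 4 against 4 in males, and bulk liver cannot tell fewer cells of a type from less RNA per cell.

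**Figure D1:**
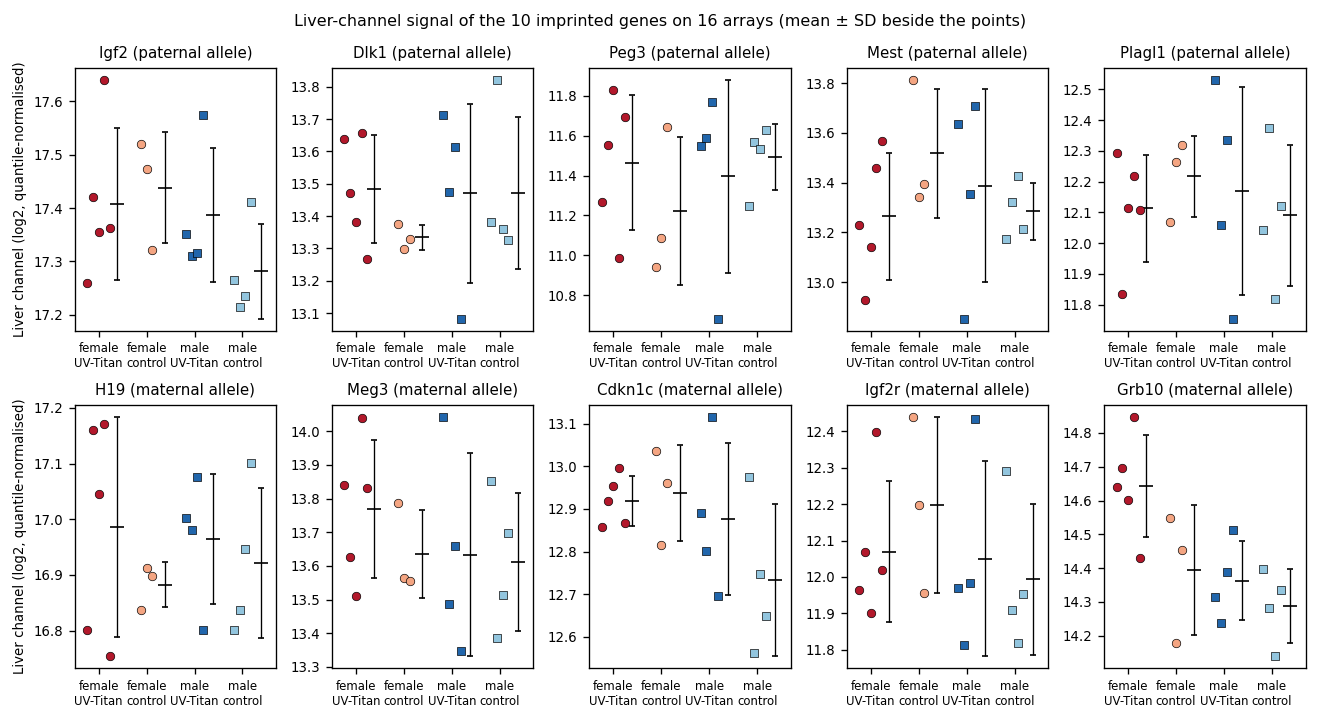
Liver-channel signal (log2, quantile-normalised; each panel has its own axis) of each of the 10 genes on 16 arrays, 1 point per array, in female UV-Titan, female control, male UV-Titan and male control, with the mean and SD beside the points. UV-Titan and control arrays overlapped for every gene in both sexes.

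The ratios of Igf2 stood higher in UV-Titan than in control females, and how far the liver channel shared in this turned on its scaling. Its brightest probe (chr7:139078075-139078135, minus strand, printed 10 times per array) gave log2 ratios of 4.40, 4.95, 4.14, 3.87 and 4.17 in UV-Titan females, against 3.68, 3.68 and 3.52 in control females. All 5 UV-Titan values lay above all 3 control values, and the mean difference was 0.68 ± 0.27 log2 (SE; limma adjusted p = 0.687). Liver-channel values were 17.26, 17.42, 17.36, 17.64 and 17.36 in UV-Titan females, against 17.52, 17.47 and 17.32 in control females. These groups overlapped, and the difference was -0.03 log2 with a 95% interval of -0.23 to 0.17 (limma adjusted p = 0.999). With each array centred on its median instead, the liver-channel difference was 0.32 ± 0.20 log2 (SE; limma adjusted p = 0.743), beside a median of 0.14 over all genes.

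The reference channel, which per the labels holds the same purchased RNA on every array, gave female Igf2 differences of -0.58 log2 with quantile normalisation and -0.64 with arrays centred on their medians (limma adjusted p = 1.000 under both). Reference-channel Igf2 was 12.33, 12.06, 12.59, 13.22 and 12.48 log2 in UV-Titan females, against 13.02, 13.23 and 13.09 in control females. Female UV-Titan replicate 16 at 13.22 and male UV-Titan replicate 17 at 13.37 were also near the control female level. The remaining 7 male arrays lay between 11.86 and 12.76. Over 16 arrays the Igf2 ratio had a Pearson correlation of -0.96 with the reference channel and -0.53 with the liver channel, a description of values that share their spots. The reference channel of Igf2 spread over 1.52 log2, more than for 99.6% of genes, while the liver channel spread over 0.42, against a median gene's 0.37 and 0.58.

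Male replicate 17, female UV-Titan replicate 16 and female control replicate 25 were the 3 arrays of slide 5, and female control replicates 35 and 40 lay on slides 1 and 4. Within slides, the female difference in the Igf2 ratio was 0.73 on slide 1, 0.62 on slide 4 and 0.19 on slide 5. The liver channel gave -0.21, 0.03 and 0.12 on the same slides. Reference-channel Afp moved in the same arrays, at 9.73, 9.63, 9.71, 11.20 and 9.58 log2 in UV-Titan females, against 10.99, 10.59 and 10.33 in control females, and its liver channel spread over 0.11 log2 in all. What raised the reference channel on these arrays was not tested.

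**Figure D2:**
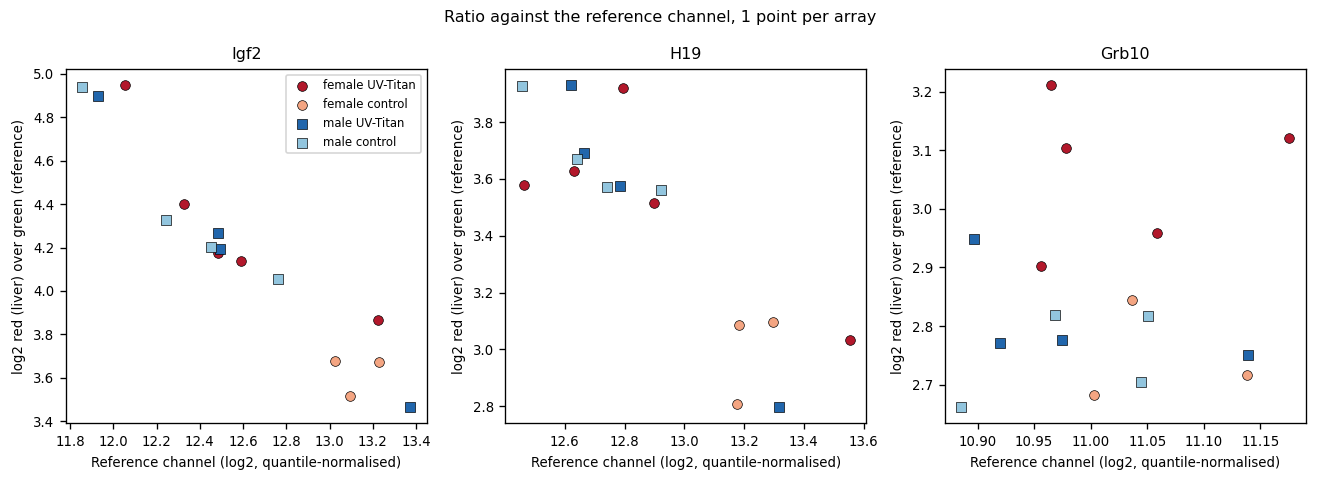
Log2 ratio of liver over reference (vertical) against the reference channel (log2, quantile-normalised, horizontal) for Igf2, H19 and Grb10, 1 point per array in the 4 groups. For Igf2 and H19 the ratio falls as the reference channel rises, with all 3 female controls at the high-reference end, and Grb10 shows no such slope (correlation 0.05 over 16 arrays).

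H19, read from the other parental copy of the same region, had a ratio difference in the same direction. Its ratios were 3.63, 3.92, 3.51, 3.03 and 3.58 in UV-Titan females, against 2.81, 3.10 and 3.09 in control females, with 4 of 5 UV-Titan values above all controls. The difference was 0.54 ± 0.21 log2 by ratio (SE; limma adjusted p = 0.684), and the other H19 probe gave 0.58. Liver-channel H19 was 16.80, 17.16, 17.04, 17.17 and 16.75 in UV-Titan females, against 16.84, 16.91 and 16.90 in control females. In 3 UV-Titan females H19 lay above and in 2 below all controls, so the liver values overlapped, with a difference of 0.10 ± 0.11 log2 (SE; limma adjusted p = 0.999). With arrays centred on their medians the liver difference was 0.41 ± 0.25 log2 (SE; limma adjusted p = 0.743). The reference channel of H19 differed by -0.35 log2 under quantile normalisation and -0.41 under centring, and its ratio had a correlation of -0.86 with that channel over 16 arrays.

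In males neither gene of the pair stood apart. Igf2 ratios were 4.27, 4.20, 4.90 and 3.47 in UV-Titan males, against 4.94, 4.20, 4.33 and 4.06 in control males. H19 ratios were 3.69, 3.57, 3.93 and 2.80 in UV-Titan males, against 3.93, 3.57, 3.67 and 3.56 in control males. The lowest value of both genes was replicate 17, and the differences were -0.18 ± 0.26 log2 for Igf2 and -0.18 ± 0.20 log2 for H19 (SE; limma adjusted p = 0.964 and 0.959). Without replicate 17 they turned to 0.07 and 0.05 log2, and without the 3 arrays with other organs' transcripts they were -0.22 and -0.26. The female effect exceeded the male effect by 0.86 ± 0.38 log2 for Igf2 and 0.72 ± 0.29 log2 for H19 by ratio (SE; limma adjusted p = 0.979 for both), and by -0.14 and 0.06 in the liver channel.

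Igf2r encodes the receptor that takes up IGF2 for breakdown, and so opposes Igf2. Its ratios (chr17:11399590-11399648, minus strand) were 0.89, 0.91, 0.82, 1.02 and 0.94 in UV-Titan females, against 0.98, 1.05 and 0.85 in control females. Males had 0.98, 0.74, 0.71 and 1.03 with UV-Titan, against 1.19, 0.85, 0.79 and 0.84 in controls. The groups overlapped in both sexes, with differences of -0.04 and -0.05 log2, and the 95% interval in females was -0.25 to 0.16. The male difference was 0.10 without the 3 arrays with other organs' transcripts.

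Grb10, an adaptor protein that binds the insulin and IGF1 receptors and restrains their signal, had the smallest unadjusted p of the members in females by both measures. Its brightest probe (chr11:11882970-11883029, minus strand) gave ratios of 3.10, 3.21, 2.96, 3.12 and 2.90 in UV-Titan females, against 2.72, 2.68 and 2.84 in control females. All 5 lay above all 3, with a difference of 0.31 ± 0.08 log2 (SE; unadjusted p = 0.0010, limma adjusted p = 0.420). Liver-channel values were 14.64, 14.70, 14.60, 14.85 and 14.43 in UV-Titan females, against 14.55, 14.18 and 14.45 in control females. These overlapped, and the difference was 0.25 ± 0.11 log2 (SE; limma adjusted p = 0.999), while the reference channel differed by -0.03. Within slides 1, 4 and 5 the female ratio difference was 0.42, 0.11 and 0.40.

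Igf2 and Grb10 were the 2 of 10 members whose female ratios did not overlap between UV-Titan and control, against 4.26% of all genes. In the liver channel 0 of 10 members failed to overlap in females (2.36% of all genes), and in males 0 of 10 by ratio (2.99%) and 0 of 10 by liver channel (1.83%).

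The Grb10 difference was not shared by its other probes. The probe at chr11:11922579-11922638 had ratios of 3.10, 3.04, 2.87, 3.29 and 2.95 in UV-Titan females, against 2.81, 3.11 and 3.19 in control females, a difference of 0.01 log2 by ratio and -0.19 in the liver channel. The probe at chr11:11885585-11886233 differed by 0.05 log2 by ratio and 0.02 in the liver channel. Liver-channel values of these probes had a correlation of 0.32 and 0.34 with the brightest probe over 16 arrays. Averaging the 3 probes of Grb10 gave a female difference of 0.12 log2.

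In males the brightest Grb10 probe had ratios of 2.78, 2.77, 2.95 and 2.75 with UV-Titan, against 2.82, 2.71, 2.66 and 2.82 in controls. The groups overlapped, with a difference of 0.06 ± 0.07 log2 (SE; limma adjusted p = 0.962), and 0.03 without the 3 arrays with other organs' transcripts. The female effect exceeded the male effect by 0.25 ± 0.11 log2 by ratio (SE; limma adjusted p = 0.979) and by 0.17 in the liver channel.

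**Figure D3:**
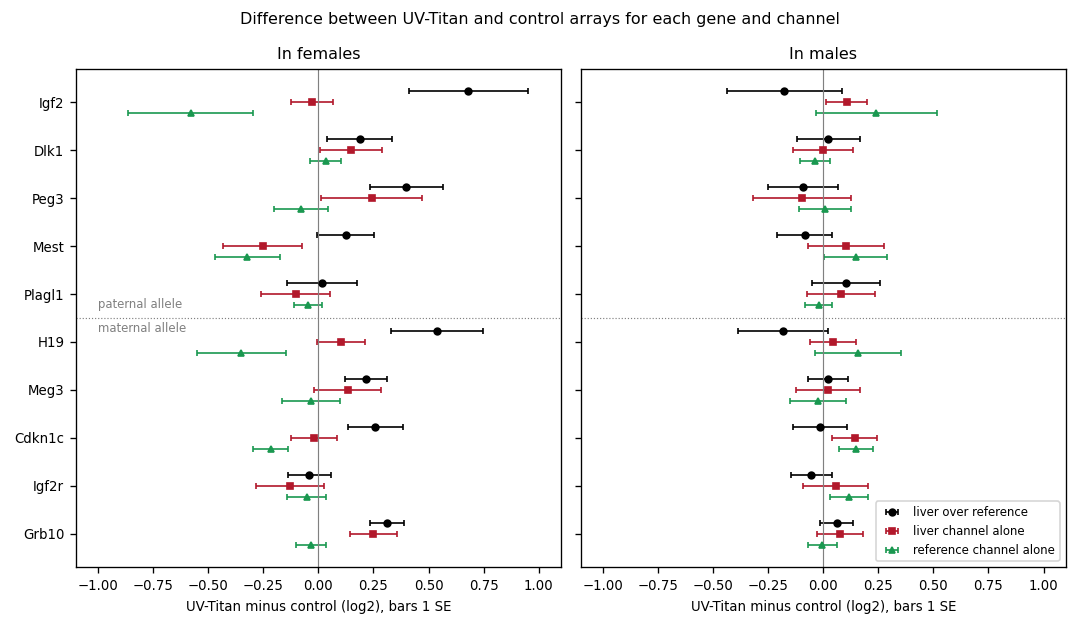
Difference between UV-Titan and control (log2, bars 1 SE) for each gene by ratio, in the liver channel alone and in the reference channel alone, females left and males right, with paternally expressed genes above the dotted line. In females Igf2 and H19 have a positive ratio difference (0.68 and 0.54) and a negative reference difference (-0.58 and -0.35) around a liver difference near 0 (all channels quantile-normalised here), and Grb10 has 0.31 by ratio and 0.25 in the liver.

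Dlk1 and Meg3, the neighbours on chromosome 12, showed small differences. Dlk1 (chr12:106981689-106981748, plus strand) gave ratios near 0, that is, similar signal in liver and reference, of 0.23, 0.12, -0.20, 0.26 and -0.15 in UV-Titan females, against -0.11, -0.12 and -0.18 in control females. Its liver-channel values were 13.64, 13.47, 13.38, 13.66 and 13.27 in UV-Titan females, against 13.38, 13.30 and 13.33 in control females. The controls lay within a narrow band that the UV-Titan values straddled, and the difference was 0.19 ± 0.15 log2 by ratio and 0.15 ± 0.14 in the liver channel (SE; limma adjusted p = 0.876 and 0.999). In males the ratio differed by 0.02 log2 and the liver channel by -0.0016 log2. This ratio difference ranged from -0.06 without male control replicate 41 to 0.15 without male UV-Titan replicate 17, and within slides 1, 2 and 3, which each hold both male groups, it was 0.26, 0.18 and 0.31 (0.12, 0.23 and 0.39 in the liver channel). Of all arrays, male control replicate 33 had the highest liver value of any array, 13.82.

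Meg3 had ratios of 3.51, 3.73, 3.44, 3.57 and 3.45 in UV-Titan females, against 3.31, 3.45 and 3.21 in control females. The difference was 0.22 ± 0.09 log2 by ratio (SE; limma adjusted p = 0.708) and 0.13 ± 0.15 in the liver channel, and the groups overlapped. All 5 Meg3 probes gave female ratio differences between 0.22 and 0.29 log2, but for those at chr12:107080192-107080251 and chr12:107082578-107082637 the reference channel was above background on 7 and 6 of 16 arrays, so their ratios rest on dim reference signal. In males the brightest probe gave 0.02 log2, and the probes at chr12:107083918-107083977 and chr12:107080192-107080251 gave 0.31 and 0.28. The liver channel of these 2 probes gave 0.28 and 0.24 in males, and their correlation with the brightest probe over 16 arrays was 0.66 and 0.46. The first of them had a ratio of 2.36 in male control replicate 33, against 3.12 to 3.19 in the other male controls. Without that array the male ratio differences of these 2 probes were 0.11 and 0.18 log2, and without the 3 arrays with other organs' transcripts they were 0.09 and 0.12, against 0.01 for the brightest probe.

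**Figure D4:**
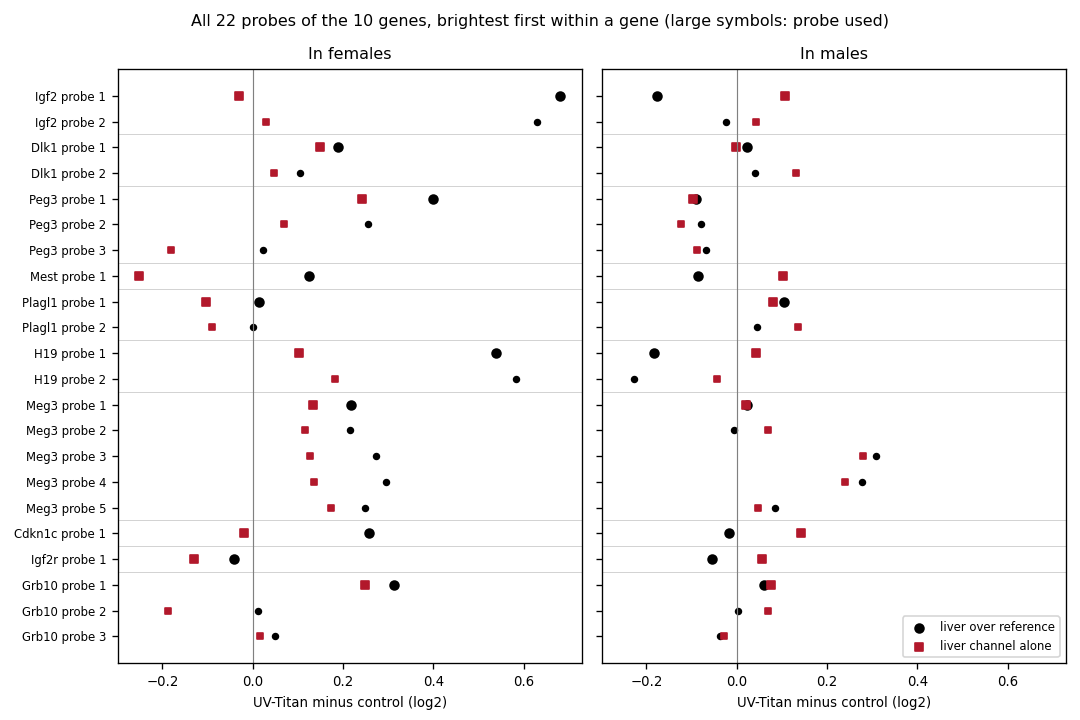
UV-Titan minus control (log2) for all 22 probes by ratio (circles) and in the liver channel alone (squares), in females and males, brightest probe first within each gene and drawn larger. Both probes of Igf2 and of H19 lie between 0.54 and 0.68 by ratio in females, the Grb10 probes part in females (0.31, 0.01 and 0.05), and the Meg3 probes spread from -0.0053 to 0.31 by ratio in males, with male control replicate 33 included.

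Cdkn1c encodes p57, an inhibitor of cyclin-dependent kinases that restrains growth. Its ratios (chr7:139886128-139886187, minus strand) were 4.56, 4.64, 4.67, 4.44 and 4.51 in UV-Titan females, against 4.13, 4.46 and 4.33 in control females. The UV-Titan values of 4 of 5 arrays lay above all controls, and the difference was 0.26 ± 0.13 log2 by ratio (SE; limma adjusted p = 0.759). The liver channel gave -0.02 log2 under quantile normalisation and 0.27 with arrays centred on their medians, and the reference channel gave -0.22 and -0.24. In males the difference was -0.02 by ratio and 0.14 in the liver channel.

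Of the paternally expressed transcription factors, Peg3, a zinc finger protein, had ratios (chr7:6266913-6266972, minus strand) of 3.29, 3.66, 3.49, 3.08 and 3.46 in UV-Titan females, against 2.75, 3.04 and 3.20 in control females. The difference was 0.40 ± 0.16 log2 by ratio (SE; limma adjusted p = 0.687) and 0.24 ± 0.23 in the liver channel, where it had the widest spread of the members within groups (SD 0.36 log2, against 0.17 for the median gene). Its second probe gave 0.26 by ratio, and its dimmest, at 0.02, had a correlation of -0.25 with the brightest. The reference channel of that dimmest probe was above background on 2 of 16 arrays, so its ratio rests on dim reference signal. In males Peg3 differed by -0.09 log2, and by 0.09 without male UV-Titan replicate 17.

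Plagl1, a zinc finger protein that acts on other imprinted genes, had ratios (chr10:12831831-12831890, plus strand) of 3.64, 3.51, 3.62, 3.65 and 3.54 in UV-Titan females, against 3.37, 3.62 and 3.75 in control females. The UV-Titan values lay within the range of the controls, and the difference was 0.01 ± 0.16 log2 (SE; limma adjusted p = 0.995). In males it was 0.10 ± 0.15 log2 (SE; limma adjusted p = 0.964), with UV-Titan replicates spread from 3.18 to 3.98. It ranged from -0.0012 without male control replicate 41 to 0.27 without male UV-Titan replicate 17. Within slides 1, 2 and 3 the male ratio difference was 0.33, 0.35 and 0.43, and that of the liver signal 0.24, 0.29 and 0.41.

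Mest, an enzyme of the alpha/beta hydrolase family, had ratios (chr6:30680425-30680484, plus strand) of 4.81, 4.75, 4.72, 4.57 and 4.90 in UV-Titan females, against 4.60, 4.65 and 4.63 in control females. The sign of its difference turned with the measure, 0.12 ± 0.13 log2 by ratio and -0.25 ± 0.18 in the liver channel (SE; limma adjusted p = 0.910 and 0.999), and the reference channel gave -0.32. In males the ratio gave -0.08 and the liver signal 0.10.

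**Figure D5:**
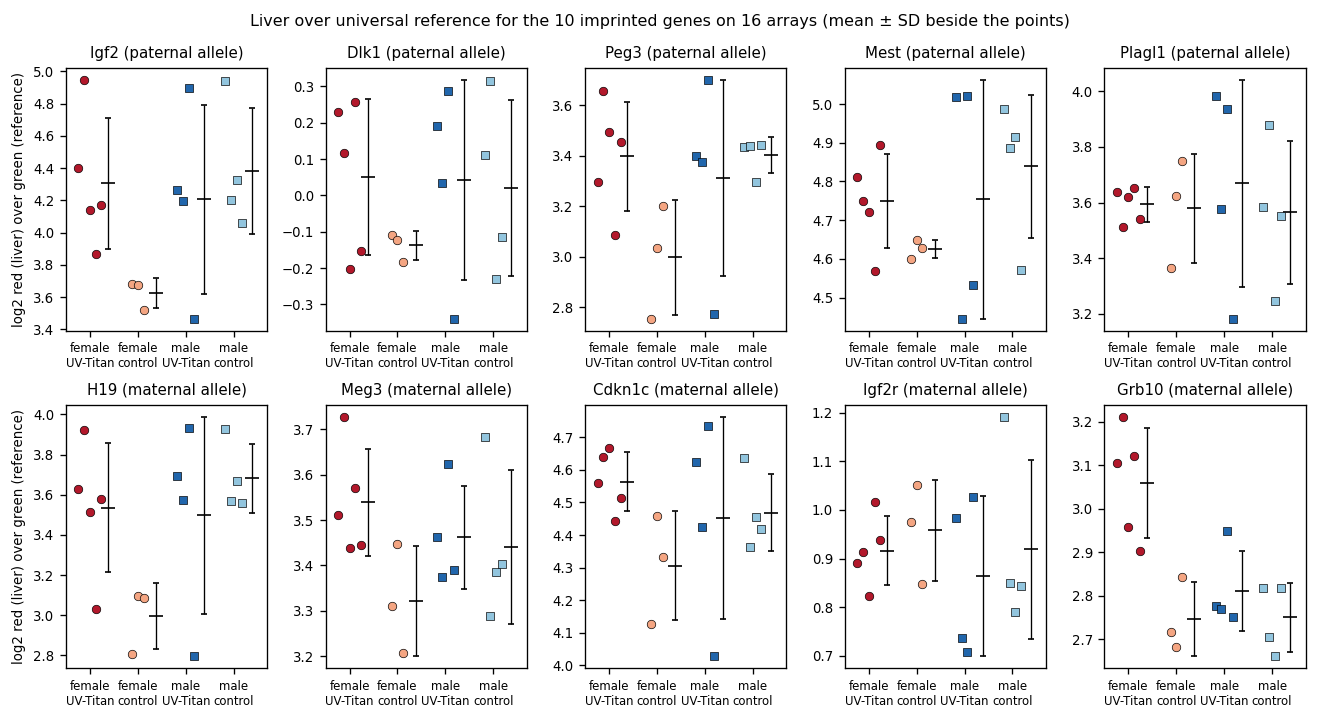
Log2 ratio of liver over universal reference (each panel has its own axis) for each of the 10 genes on 16 arrays, 1 point per array, in female UV-Titan, female control, male UV-Titan and male control, with the mean and SD beside the points. In females the UV-Titan and control points of Igf2 and Grb10 do not overlap, and in males those of every gene do.

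Without the 3 arrays with other organs' transcripts, the male ratio differences of the remaining members were 0.13 log2 for Dlk1, 0.01 for Meg3, -0.08 for Cdkn1c, -0.19 for Peg3, 0.18 for Plagl1 and -0.08 for Mest. None was called.

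The paternally and maternally expressed genes overlapped in their differences. In females by ratio, 5 of 5 paternally expressed genes had a positive difference (median 0.19 log2) and 4 of 5 maternally expressed genes did (median 0.26), beside 58.7% of all genes (median 0.02). In the liver channel these counts were 2 of 5 (median -0.03) and 3 of 5 (median 0.10), beside 49.8% of all genes. The positive female ratios were not particular to the members. Of 17 measured hepatocyte markers, 17 had a positive female difference by ratio (median 0.59 log2) and 13 in the liver channel (median 0.06). In males by ratio, 2 of 5 genes of each group had a positive difference, with medians of -0.08 for the paternal and -0.02 for the maternal group, beside 56.7% of all genes. The male liver signal gave 3 of 5 (median 0.08) and 5 of 5 (median 0.06), beside 50.4% of all genes. Without the 3 arrays with other organs' transcripts, the male liver difference of Dlk1 turned from -0.0016 to 0.08 log2. That of H19 turned from 0.04 to -0.10, Peg3 stayed negative at -0.31, and the other members stayed positive. The unlike counts of the paternal and maternal groups therefore did not hold without those arrays.

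Set against each other on each array, the mean ratio of the paternal genes minus that of the maternal genes, each gene centred on its mean of all arrays, was 0.00067, -0.02, -0.06, -0.09 and -0.03 log2 in UV-Titan females, against -0.06, -0.11 and -0.02 in control females. In males it was 0.13, 0.01, 0.24 and -0.21 with UV-Titan, against 0.02, 0.25, -0.02 and -0.04 in controls. The groups overlapped in both sexes, and the males spread more widely, from replicate 17 at the low end to control replicate 33 at the high end. Control replicate 33 at 0.25, UV-Titan replicate 5 at 0.24 and control replicate 31 at 0.02 are the 3 arrays with other organs' transcripts. Without them the male values ran from -0.21 to 0.13 log2.

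The scaling of the liver channel shifted all members together in females. With each array centred on its median in place of quantile normalisation, the median of all genes moved to 0.14 log2 in females and 74.7% of all genes had positive differences. All 10 members had positive differences, from 0.02 for Mest and 0.14 for Igf2r to 0.50 for Peg3 and 0.52 for Grb10. Of the 10, 6 exceeded 0.3 log2 under this scaling, and none passed the test. Under quantile normalisation 5 of 10 were positive.

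Male against female over both exposures gave 9 called genes by ratio (0.0481% of those tested) and 7 by liver channel (0.0374%), with no member among them. H19 had a male minus female difference of 0.32 ± 0.15 log2 by ratio (SE; limma adjusted p = 0.977) and 0.01 in the liver channel. Its mean ratio was 3.68 in male against 3.00 in female controls, but 3.50 against 3.54 with UV-Titan. The reference channel of H19 differed by -0.28 log2 between males and females. Grb10 had -0.12 ± 0.05 log2 by ratio and -0.19 ± 0.07 for liver alone (SE; limma adjusted p = 0.977 and 1.000), lower in males. Its mean ratio was 2.78 ± 0.09 in males and 2.94 ± 0.19 in females (SD, n = 8 each). By group, the mean Grb10 ratio was 2.75 in both male and female controls, and 2.81 in male against 3.06 in female UV-Titan arrays. The ratio difference between the sexes thus lay in the UV-Titan arrays. The other Grb10 probes had male minus female differences of -0.17 and -0.19 log2 by ratio, and -0.28 and -0.18 in the liver channel.

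Between arrays, 4 relations were computed in the liver channel over all 16. H19 with Igf2 had a Pearson r of 0.28 (permutation p = 0.299, adjusted 0.599) and a Spearman rho of 0.26 (permutation p = 0.331), and r was -0.06 without the 2 arrays farthest from the median of H19. Dlk1 with Meg3 had r = 0.35 (permutation p = 0.190, adjusted 0.599) and rho = 0.27 (permutation p = 0.308), and r was 0.57 without its 2 farthest arrays. With Afp, H19 had r = -0.03 and rho = 0.10, and Igf2 had r = -0.11 and rho = -0.06 (permutation p of r 0.926 and 0.686, adjusted 0.926 and 0.915). These became r = -0.19 and -0.12 without the 2 farthest arrays of each. Quantile normalisation bounds the spread of the brightest probes, and liver-channel Afp spread over 0.11 log2, against 0.58 for the median gene. The correlations with Afp therefore cannot tell whether a relation was present.

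By ratio, 3 of these 4 pairs were closely related, and Dlk1 with Meg3 had r = 0.46 (permutation p = 0.0732) and rho = 0.41 (permutation p = 0.115). H19 with Igf2 had r = 0.93 and H19 with Afp r = 0.96 (permutation p = 1e-05 for both, the smallest that 100000 resamples can give), and in the reference channel itself H19 with Igf2 had a correlation of 0.89. With the liver channel centred on the median of each array, H19 with Igf2 had r = 0.93 and rho = 0.86 (permutation p of rho 8e-05), while Dlk1 with Meg3 had r = 0.78 and rho = 0.35 (permutation p of rho 0.181). Each slide held 3 or 4 arrays, so the relation within slides was taken over all 16 as deviations from slide means, permuted within slides. H19 with Igf2 then had r = 0.54 (permutation p = 0.0309, adjusted 0.124) and Dlk1 with Meg3 r = 0.55 (permutation p = 0.0996, adjusted 0.199), with rho of 0.55 and 0.29.

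The other genes of the same pathways were read from lists. Among 17 measured of 22 other paternally expressed genes and 14 measured of 18 other maternally expressed genes, 0 were called in either sex by either measure. Their median differences by ratio in females were 0.04 log2 (9 of 17 positive) and 0.08 log2 (8 of 14 positive), and in males -0.06 and 0.02. Rian, a non-coding RNA transcribed beyond Meg3, had 0.61 ± 0.24 log2 in males by ratio (SE; limma adjusted p = 0.950), 0.17 without the 3 arrays with other organs' transcripts and -0.04 from the processed signals. Phlda2, a maternally expressed growth restraint of placenta, had -0.49 ± 0.22 log2 in the female liver channel (SE; limma adjusted p = 0.999).

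Of the IGF axis, 16 of 17 genes were measured and 0 were called in either sex. By ratio 12 of 16 had a positive difference in females (median 0.09 log2) and 8 of 16 in males (median 0.0052). Igfbp5, Igfbp2 and Igfbp1, secreted proteins that bind the growth factors, had 0.51 ± 0.16, 0.44 ± 0.16 and 0.79 ± 0.36 log2 in females by ratio (SE; limma adjusted p = 0.609, 0.653 and 0.711). Igfbp5 had 0.43 log2 in the liver channel too, and Igfbp2 0.18. In females Irs1, which carries the signal of the insulin and IGF1 receptors, had -0.28 ± 0.13 log2 by ratio and -0.34 ± 0.13 for liver alone (SE; limma adjusted p = 0.741 and 0.999). In males Igf1, the postnatal growth factor of liver, had 0.44 ± 0.13 log2 by ratio and 0.45 ± 0.16 for liver alone (SE; limma adjusted p = 0.950 and 1.000).

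Among 8 measured of 9 fetal liver genes and their repressors, 0 were called in either sex. Zbtb20 had 0.38 ± 0.13 log2 by ratio and 0.41 ± 0.12 for liver alone in females (SE; limma adjusted p = 0.652 and 0.999). Its liver-channel values were 11.56, 11.76, 11.69, 11.77 and 11.54 in UV-Titan females, against 11.24, 11.31 and 11.23 in control females, with all 5 above all 3 (liver-channel groups of 2.36% of all genes did not overlap in females). In males the Zbtb20 ratio gave 0.22 and the liver signal 0.14 log2, and the ratio gave 0.14 without the 3 arrays with other organs' transcripts. Gpc3 and Afp had 0.43 and 0.78 log2 in females by ratio, and 0.21 and -0.00054 in the liver channel.

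The genes whose liver-channel values followed a member most closely over the 16 arrays were picked as the highest of 18679 correlations each, so high values are to be had by choice alone, and arrays share slides and scaling. Igf2r had the closest partners, Rab11a (0.96), Larp1 and Tpst1 (both 0.95), and Igf2 had D16Bwg1543e (0.94), Maged1 and Pdia3 (both 0.93). Peg3 was closest to H2-Q5 (0.92) and Mest to Cdk2 (0.91). Dlk1 was closest to Tro (0.84), Grb10 to Fga (0.83, beside an unnamed probe), Plagl1 to Ppic (0.82), H19 to Tmem63b (0.82), Meg3 to Pea15a (0.79) and Cdkn1c to Tspan6 (0.79, beside an unnamed transcript). No member was among the 3 closest genes of another.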

How the data were processed

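RNA from random sections of each liver (200 ng) was amplified, labelled and hybridised with Stratagene reference RNA to Agilent 4 x 44 arrays and read with Feature Extraction 9.5.3.1, per the labels' protocols. The authors deposited per-spot intensity values and their own log2 ratios, with no normalisation given in the sources used here. The label field and the labelling protocol disagree on the dye. Liver was taken as red because the median log2 red over green of 17 hepatocyte markers was positive on all 16 arrays.

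Mean and background signals were corrected by normexp (offset 50) and loess in limma 3.58.1 (R 4.3.3). Outlier spots (90 to 135 of 43379 non-control spots per array) were left out and spots of a probe averaged. No non-control spot was saturated. Probes above background on at least 3 arrays were kept, giving 18707 genes (12166 named by accession, assembly GRCm38.p6, 945 by an older symbol). The 16 arrays, whose number limits precision, were fitted with 4 group means and Benjamini-Hochberg adjustment over all genes (threshold 0.05, two-sided). The fit was tested on simulated data. Alternatives covered channel, scaling, background, filter, probe, slide, scan day, weights and each array left out.

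Named genes were the members, Afp, Gpc3, Zhx2, Zbtb20, Xist and Ddx3y, up to 4 genes of each list with the smallest p, and 3 genes most correlated with each member. Members and lists were chosen with earlier results of these data known.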

Additional observations from a re-analysis of the deposited data

Results flagged for a closer look

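Of 60 groups of member values examined (10 genes, by ratio and liver channel, in the 3 groups of 4 or 5 arrays), 5 held 1 array far from the others of its group, and chance sets about 1 group in 20 apart in this way. By ratio, Peg3 in male control replicate 41 was 3.29 log2, against 3.43 to 3.44 on the other male controls. The ratio of Igf2r in male control replicate 31, an array with pancreas transcripts, was 1.19, against 0.79 to 0.85. The ratio of Grb10 in male UV-Titan replicate 5, the array with muscle transcripts, was 2.95, against 2.75 to 2.78. In the liver channel, Igf2 in male UV-Titan replicate 17 was 17.57, against 17.31 to 17.35. Liver-channel Dlk1 in male control replicate 33, also with pancreas transcripts, was 13.82, against 13.33 to 13.38. The part of the other organs' transcripts in these values was not tested.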

How the results depend on the processing

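No paired analysis was possible because the groups share no replicate numbers, and slide, which often holds both groups of a sex, was fitted as a block instead. No member was called under any of 29 alternatives in any of the 5 comparisons. Of 1450 such member values, 123 changed sign, none of them called. Leaving out male arrays alone cannot change a female difference, nor leaving out female arrays a male difference, so some of these values could not change. In females Grb10, H19, Peg3, Meg3 and Dlk1 kept a positive difference under all 29, including those that left out only male arrays and could not change it. Igf2, Cdkn1c and Mest turned negative under 2, at -0.03, -0.02 and -0.25 log2. Both were liver-channel settings with quantile scaling, and they hold the same female estimate because they differ only in male arrays left out. Female Plagl1 and Igf2r, both near 0, changed sign under 10 and 3 alternatives. Female Grb10 ranged from 0.12 (mean of its probes) to 0.52 (liver channel, median-centred), with limma adjusted p no lower than 0.163. Leaving out female UV-Titan replicate 8 gave Igf2 0.52 and H19 0.44 log2, and leaving out replicate 16 gave 0.79 and 0.66.

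Counts over all genes moved where the count was near 0. In females, 79 genes were called with array weights (74 higher), 1 with slide as a block and 1 with scan day as a block. Over both sexes, 46 were called with array weights, 10 with scan day as a block, 1 with slide as a block and 1 with no background correction. In males 1 was called from the processed signals. Male against female, 3 of 15711 genes were called when a probe had to be above background on all 16 arrays. Leaving out each array in turn gave 0 to 1 calls in females, 0 in males, 0 to 11 over both sexes (11 without male control replicate 43, 3 without female control replicate 35), 0 for the difference between the sexes and 8 to 9 for male against female.

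The relations between arrays turned on the values used. By ratio, H19 with Igf2 had r = 0.93, H19 with Afp 0.96 and Igf2 with Afp 0.86, and with the liver channel centred on the median these were 0.93, 0.89 and 0.84, with Dlk1 and Meg3 at 0.78 (rho 0.35, permutation p = 0.181). The rho of H19 with Afp and of Igf2 with Afp was then 0.49 and 0.44 (permutation p = 0.058 and 0.0859). Without the 3 arrays with other organs' transcripts, Dlk1 with Meg3 had r = 0.74 (adjusted permutation p = 0.0144) but rho = 0.48 (adjusted permutation p = 0.354), H19 with Afp 0.27 and Igf2 with Afp 0.34. As deviations from group means the Afp relations were 0.013 and 0.044, and as deviations from slide means that of Igf2 was 0.090. The Afp relations without the 3 arrays and as deviations rest on quantile-normalised values. Liver-channel Afp spread there over 0.11 log2 at most, so they cannot tell whether a relation was present. The cause of these changes was not tested. The slide deviations, the probe values without single arrays, the median-centred reference channel and the liver channel without those 3 arrays were chosen after seeing the data, and the last called no member. The reference-channel spread limits what the ratios of Igf2 and H19 can show in females, where all 3 controls had high reference signal.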
